A study of Mus musculus with 12 samples.

Results

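The genes described here encode the mitochondrial ribosome and the channels that bring proteins into mitochondria. They were taken by name: every gene of the deposited count matrix whose symbol begins with Mrpl, Mrps, Timm or Tomm followed by a number. That gave 98 of 16353 genes. By the first letters of the symbol, 47 were classed with the large ribosomal subunit (Mrpl) and 29 with the small subunit (Mrps). Another 12 were classed with the inner membrane translocases (Timm) and 10 with the outer membrane translocase (Tomm). The classes follow names alone, and it was not checked for every gene that its protein belongs to the complex named.

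The RNA came from KB5 T cells, CD8 T cells that carry a transgenic receptor for an allogeneic class I molecule, sorted to 95% purity on the KB5 receptor and CD8 from spleens of CBA/J mice. Inflamed cells came from mice that had received a donor-specific transfusion of 10000000 C57BL/6 splenocytes together with 0.5 mg of an antibody to CD154, the ligand of CD40 on helper T cells, and 100 µg of lipopolysaccharide (LPS). Tolerized cells came from mice given the transfusion and the antibody without LPS, and activated cells from mice given the transfusion alone. Naive cells came from untreated mice. Cells were collected 12 h after treatment, each group had 3 libraries, and all cells carried the same transgenic receptor. The labels call the libraries independent without saying which mice they came from, so p-values measure the spread between libraries. The inflamed, tolerized and activated groups shared exposure to donor antigen and are called antigen-exposed below.

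Mitochondria make a small set of respiratory chain subunits on their own ribosomes, whose RNA is encoded in mitochondrial DNA and whose proteins are all encoded in the nucleus. Those proteins, like almost all mitochondrial proteins, enter through the TOM complex of the outer membrane and are then passed to the TIM23 complex, which serves the matrix and the inner membrane, or to the TIM22 complex, to which small TIM chaperones escort carrier proteins. T cells that leave the resting state enlarge their mitochondria and turn to biosynthesis, so both machineries are commonly followed as part of activation.

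The stretch just before the start of transcription was read for the members in the RefSeq promoter table (mouse build GRCm38.p6), where 87 of 98 members had an entry, with 95 windows running from 250 bases before to 50 bases after a start. Windows of 120 bases before the start are printed 5′ to 3′ on the gene's strand, to show what the proximal promoters of members at different places in the response look like. For the first 3, the member shown had the largest mean change against naive among those holding the named motif in that stretch, and Mrps25 is shown as the member that was lower in every antigen-exposed group. Capitals mark any of 5 motifs searched on both strands: CACGTG (the E-box core), CCGGAAGT (ETS type), AAGATGGC (YY1 type), GCATGCGC (NRF1 type) and TATAAA. None of these strings contains another.
Mrpl20, chr4:155802758-155802877, plus strand: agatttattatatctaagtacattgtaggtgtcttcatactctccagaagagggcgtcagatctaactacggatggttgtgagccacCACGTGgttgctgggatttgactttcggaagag
Mrps22, chr9:98601680-98601799, minus strand: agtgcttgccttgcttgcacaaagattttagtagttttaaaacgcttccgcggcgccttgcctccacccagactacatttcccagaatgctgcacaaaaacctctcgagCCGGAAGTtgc
Mrpl36, chr13:73330889-73331008, plus strand: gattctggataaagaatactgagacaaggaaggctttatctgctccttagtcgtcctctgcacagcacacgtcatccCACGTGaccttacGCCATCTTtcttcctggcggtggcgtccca
Mrps25, chr6:92184024-92184143, minus strand: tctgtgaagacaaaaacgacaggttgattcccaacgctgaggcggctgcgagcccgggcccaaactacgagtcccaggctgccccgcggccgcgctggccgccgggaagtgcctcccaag

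Among the 95 member windows, the ETS-type motif was in 16.8%, against 7.9% of 12746 windows of genes tested here and 3.9% of all 32851 windows in the table. The YY1-type motif was in 13.7% of member windows, against 4.3% of tested genes' windows and 2.7% of all windows, and the NRF1-type motif in 9.5%, against 5.1% and 2.7%. The E-box core was in 12.6% of member windows, against 9.9% of tested genes' windows and 7.2% of all windows. TATAAA was in 7.4% of member windows, against 7.4% of tested genes' windows and 13.6% of all windows. Holders of the ETS-type motif included Timm10, Timm23, Tomm70a and Mrps22, and holders of the E-box core included Timm8a1, Timm9, Timm10 and Tomm20. The windows of Timm17a, Timm17b, Tomm40, Tomm34, Mrpl12 and Mrps6 held none of the E-box, ETS-type or YY1-type strings. A match describes these letters in this window only.

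Counts summed to 29335723 to 53432765 per antigen-exposed library and to 31344106 to 84533097 per naive library, and the members held 91531 to 362850 of them. Levels below are counts per 1000000 scaled counts (CPM), scaled by trimmed-mean factors, and per kilobase of exon (RPKM) where genes are compared with each other. Changes are differences of group means of log2(CPM + 1), which understate the change of low genes, given with standard errors and p-values from limma adjusted over 12499 tested genes (Benjamini-Hochberg), and a gene is called at an adjusted p under 0.05. T cell markers (8 of 8 in the table) summed to 2393 to 3842 CPM in antigen-exposed libraries and 5190 to 6392 CPM in naive libraries. Macrophage and monocyte markers (13 of 14 in the table, none at 0 in every library) summed to 16.7 to 727 CPM in antigen-exposed libraries and 719 to 1872 CPM in naive libraries. Erythroid markers (9 of 10) summed to 20.5 to 303 CPM against 1001 to 2414 CPM, and B cell markers (9 of 9) to 100.2 to 213 CPM against 431 to 549 CPM. Neutrophil markers (8 of 9) summed to 198 CPM in inflamed 1 and 91.1 CPM in inflamed 2, to at most 12.6 CPM in the other 7 antigen-exposed libraries, and to 15.1 to 20.6 CPM in naive libraries. Dendritic cell markers (5 of 5) reached 36.6 CPM, while NK cell and platelet markers (4 of 4 each) stayed at or below 2.69 and 5.12 CPM in every library. The part of these other transcripts in the results was not tested. In bulk RNA, fewer cells of a type and less RNA per cell cannot be told apart.

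All 4 classes were higher in antigen-exposed cells than in naive cells, and the Timm class changed most at its median. The members together took 0.679 to 0.726% of counts in inflamed libraries, 0.644 to 0.739% in tolerized libraries and 0.613 to 0.767% in activated libraries, against 0.292 to 0.304% in naive libraries. No antigen-exposed library overlapped a naive one. The lowest antigen-exposed libraries were activated 3 with a summed member level of 6103 CPM and tolerized 3 with 6647 CPM, and the highest naive library was naive 2 with 2673 CPM. Markers of dividing cells (8 of 8) summed to 854 CPM in tolerized 3 and 199 CPM in tolerized 2, against 23.9 to 36.3 CPM in the other 7 antigen-exposed libraries and 44.7 to 134 CPM in naive libraries. The part of dividing cells in the member levels was not tested.

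**Figure D1:**
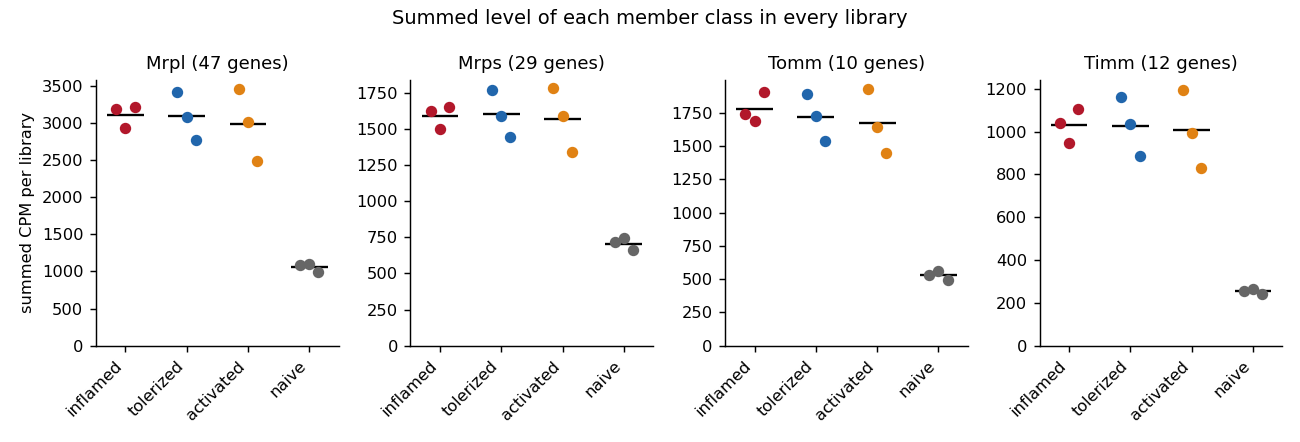
Summed CPM of each member class (panels) in every library (points), with the group mean as a bar and each axis starting at 0. All 9 antigen-exposed libraries lie above all 3 naive libraries in each class, for example 831 to 1195 CPM against 244 to 266 CPM for Timm.

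Of 97 tested members, 93 were called higher and 1 lower in inflamed than in naive cells, where 36.9% of all tested genes were called higher and 35.5% lower. Against the same naive libraries, 94 were called higher and 1 lower in tolerized cells (background 37.4% and 35.9%), and 95 higher and 1 lower in activated cells (background 35.3% and 35.3%). The 95 include Tomm20l, which passed the filter on low values only through antigen-exposed libraries and is not read as a result. Without it, 94 of 96 were higher in activated cells. The members' median log2 change was 1.37 in inflamed, 1.44 in tolerized and 1.42 in activated cells (1.40, 1.46 and 1.43 without Tomm20l). The median over all tested genes was -0.0056, -0.0099 and -0.039. The 3 comparisons share the naive libraries, so they are not independent of each other. In all, 93 members were higher than naive in all 3 antigen-exposed groups, 1 (Mrps25) was lower in all 3, and the other 3 tested members (Tomm34, Tomm20l and Mrpl24) were not called in at least 1 comparison.

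**Figure D2:**
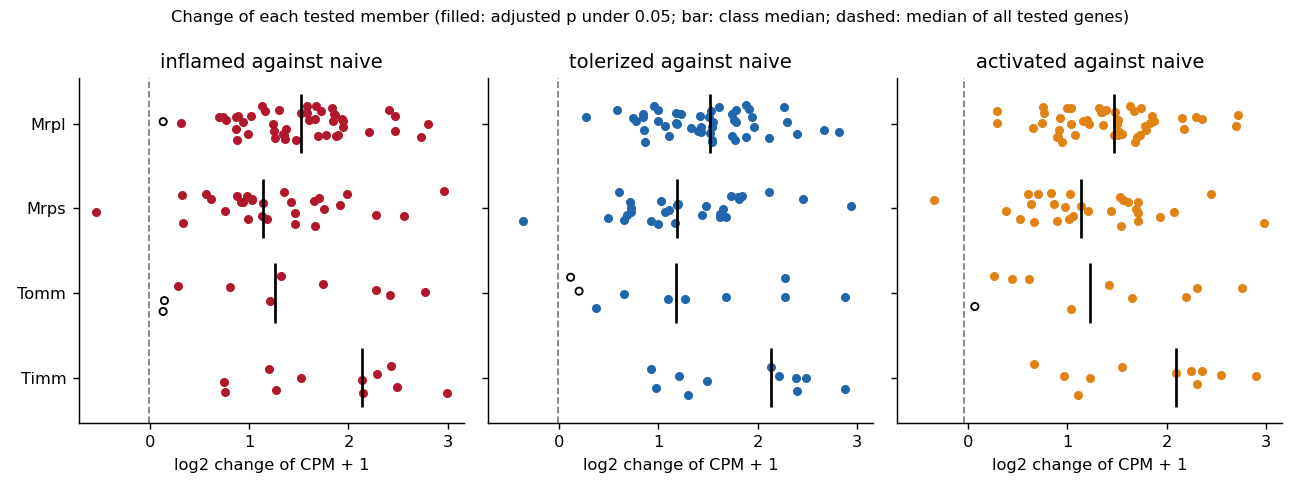
Log2 change of CPM + 1 of each tested member (points) against naive, by class (rows) and antigen-exposed group (panels), filled where the adjusted p was under 0.05. Class medians (bars) in inflamed cells were 1.52 for Mrpl, 1.14 for Mrps, 1.26 for Tomm and 2.13 for Timm. The Tomm row includes Tomm20l, and the dashed line marks the median of all tested genes.

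In the outer membrane, all 7 subunits of the TOM complex were called higher in each antigen-exposed group, with a median log2 change of 1.75 in inflamed, 1.68 in tolerized and 1.65 in activated cells. Tomm40, the pore through which precursor proteins pass, changed most. Tomm40 had 280, 252 and 317 CPM in the inflamed libraries, 363, 302 and 256 CPM in the tolerized libraries and 358, 290 and 208 CPM in the activated libraries, against 41.7, 42.6 and 37.0 CPM in the naive libraries. Each antigen-exposed library was far above the naive ones. The log2 change of Tomm40 was 2.77 ± 0.19 (SE) in inflamed cells (adjusted p = 4.45e-07), 2.88 ± 0.19 in tolerized cells (adjusted p = 3.67e-07) and 2.76 ± 0.19 in activated cells (adjusted p = 5.99e-07).

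The receptors that recognise precursors moved to different degrees. Tomm70a, the receptor for precursors brought by cytosolic chaperones, had 491 to 604 CPM in inflamed, 430 to 559 CPM in tolerized and 436 to 514 CPM in activated libraries, against 89.7 to 108 CPM in naive libraries, with log2 changes of 2.42, 2.28 and 2.20. Tomm20, the receptor for presequences, had 369 to 422 CPM, 345 to 405 CPM and 323 to 437 CPM in the same groups, against 113 to 121 CPM in naive libraries, and its log2 changes were 1.75, 1.68 and 1.65. Tomm22, which links the receptors to the pore, changed by 1.21, 1.10 and 1.04, from levels of 55.3 to 65.7 CPM in naive libraries. None of the 3 receptors overlapped between antigen-exposed and naive libraries. Of all tested genes, 36.9% in inflamed, 37.4% in tolerized and 35.3% in activated cells were called higher than in naive cells. How many of these also did not overlap was not counted.

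The 3 small TOM subunits, which shape and stabilise the complex, spread widely. Tomm5 had 127, 140 and 141 CPM in inflamed, 142, 147 and 120 CPM in tolerized and 164, 141 and 114 CPM in activated libraries, against 27.4, 30.1 and 24.5 CPM in naive libraries, a log2 change of 2.28, 2.28 and 2.30. Tomm6 changed by 1.32, 1.27 and 1.42, and 84.2% of its annotated exon bases are shared with another gene model, most of them with one on the same strand. Tomm7 moved least, with 59.3, 56.9 and 63.7 CPM in inflamed, 61.8, 67.8 and 62.0 CPM in tolerized and 73.8, 70.7 and 57.5 CPM in activated libraries, against 44.8, 54.8 and 47.8 CPM in naive libraries. Its log2 changes of 0.29 (adjusted p = 0.0361), 0.38 (adjusted p = 0.00982) and 0.44 (adjusted p = 0.00423) were called, although naive 2 stood only a little below the lowest inflamed and activated libraries. In inflamed cells the call on Tomm7 was lost without inflamed 1, inflamed 3, naive 1 or naive 3 (adjusted p = 0.0548 to 0.131).

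Tomm34, a cytosolic co-chaperone that carries a Tomm name without being a subunit of the channel, did not pass the test in any comparison. It had 75.2 to 91.5 CPM in inflamed, 77.4 to 83.7 CPM in tolerized and 76.5 to 77.4 CPM in activated libraries, against 71.1 to 75.7 CPM in naive libraries. The log2 changes of Tomm34 were 0.15 ± 0.08 in inflamed (adjusted p = 0.121), 0.12 ± 0.08 in tolerized (adjusted p = 0.206) and 0.07 ± 0.08 in activated cells (adjusted p = 0.461), and scaling by library size alone turned them into calls in the other direction (-0.18, -0.19 and -0.20). Tomm20l, a paralog of Tomm20, had 2 to 17 counts per library. Before trimmed-mean scaling it reached the filter's level in 3 libraries, all antigen-exposed, so that it was tested only because of the side on which it was higher, and its change (log2 0.13 in inflamed, 0.20 in tolerized and 0.26 in activated cells) is given as a value, though it passed the test in activated cells (adjusted p = 0.0471). Without Tomm20l, 93 of 96 members were higher in inflamed and 94 of 96 in tolerized cells.

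In the inner membrane, all 11 tested Timm genes were called higher in each antigen-exposed group, with a class median log2 change of 2.13 in inflamed, 2.14 in tolerized and 2.09 in activated cells. In the TIM23 complex, Timm23, the channel subunit itself, had 257, 232 and 270 CPM in inflamed, 286, 245 and 212 CPM in tolerized and 285, 219 and 199.8 CPM in activated libraries, against 44.5, 49.1 and 45.2 CPM in naive libraries. Its log2 changes were 2.42 ± 0.14 (adjusted p = 1.83e-07), 2.38 ± 0.14 (adjusted p = 2.11e-07) and 2.30 ± 0.14 (adjusted p = 3.18e-07). Timm50, the receptor that takes precursors over from the TOM complex, had 98.8 to 116 CPM, 90.8 to 126 CPM and 82.1 to 127 CPM in the same groups, against 22.5 to 24.9 CPM in naive libraries, and changed by 2.15, 2.14 and 2.09. Timm44, which tethers the import motor to the channel, changed less, by 1.20, 1.21 and 1.11. Timm22, the channel of the carrier pathway, had 27.9 to 39.1 CPM, 34.6 to 40.4 CPM and 33.2 to 41.4 CPM, against 16.6 to 20.6 CPM in naive libraries, and changed by 0.74, 0.98 and 0.97. None of these genes overlapped between antigen-exposed and naive libraries, and the share of all tested genes that did not overlap was not counted.

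The small TIM chaperones, which carry hydrophobic proteins across the space between the membranes, rose together in the tested members (5 of 5, median log2 change 2.13 in inflamed, 2.21 in tolerized and 2.24 in activated cells). Timm8a1 had 149, 145 and 174 CPM in inflamed, 156, 158 and 122 CPM in tolerized and 167, 148 and 128 CPM in activated libraries, against 19.8, 19.5 and 17.0 CPM in naive libraries. Its log2 changes of 2.99 ± 0.13 (adjusted p = 6.06e-08), 2.88 ± 0.13 (adjusted p = 6.97e-08) and 2.90 ± 0.13 (adjusted p = 9.77e-08) were among the largest of all members. Timm9 and Timm10, which form a hexamer with each other, moved to a like degree: Timm9 changed by 2.13, 2.21 and 2.24 and Timm10 by 2.29, 2.49 and 2.54. Timm13, the partner of Timm8 proteins, changed by 1.52, 1.49 and 1.55. The untested member, Timm8a2, failed the filter on low counts, with 9, 7 and 9 reads in inflamed, 0, 6 and 1 in tolerized and 5, 9 and 7 in activated libraries, against 17, 20 and 15 in naive libraries.

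In the Mrpl class, 46 of 47 genes were called higher in inflamed cells and 47 of 47 in tolerized and in activated cells. The class medians of the log2 change were 1.52, 1.52 and 1.47. Mrpl12, part of the flexible stalk that binds translation factors, was the member with the highest level per length, at a mean of 238 RPKM in inflamed, 244 RPKM in tolerized and 231 RPKM in activated cells, against 33.1 RPKM in naive cells. In CPM, Mrpl12 had 245, 198 and 235 in inflamed, 279, 227 and 187 in tolerized and 287, 212 and 157 in activated libraries, against 30.1, 32.9 and 31.3 in naive libraries. Its log2 changes were 2.80 ± 0.20 (adjusted p = 6.56e-07), 2.82 ± 0.20 (adjusted p = 6.32e-07) and 2.72 ± 0.20 (adjusted p = 9.95e-07), and its residual standard deviation of 0.27 (log2) was the largest of the tested members. Mrpl15 changed by 2.73, 2.67 and 2.70, Mrpl16 by 2.47, 2.30 and 2.18, Mrpl17 by 2.46, 2.39 and 2.36, and Mrpl20, whose promoter is printed above, by 2.40, 2.26 and 2.29. Mrpl11, a neighbour of the stalk, changed by 1.94, 1.91 and 1.79, and Mrpl3 by 1.94, 1.88 and 1.79.

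At the low end of the Mrpl class stood Mrpl24 and Mrpl4. Mrpl24 had 75.2, 80.5 and 90.8 CPM in inflamed, 89.7, 89.4 and 91.0 CPM in tolerized and 90.9, 97.9 and 85.7 CPM in activated libraries, against 80.1, 73.7 and 70.0 CPM in naive libraries. Inflamed and naive libraries overlapped and the inflamed change of Mrpl24 was not called (0.13 ± 0.09, adjusted p = 0.186), while those in tolerized cells (0.27, adjusted p = 0.0165, lost without naive 3 at adjusted p = 0.0600) and activated cells (0.29, adjusted p = 0.0118, lost without activated 2 at adjusted p = 0.0526) were. Mrpl4 had 42.4 to 45.1 CPM, 48.1 to 59.8 CPM and 40.8 to 46.8 CPM, against 32.1 to 37.4 CPM in naive libraries, with log2 changes of 0.32 (adjusted p = 0.0162), 0.58 (adjusted p = 0.000457) and 0.29 (adjusted p = 0.0257). Its call was lost in inflamed cells without naive 3 (adjusted p = 0.0615) and in activated cells without activated 2, naive 2 or naive 3 (adjusted p = 0.0522 to 0.103). Under scaling by library size alone, Mrpl24 stood at -0.037 in tolerized cells and Mrpl4 at -0.0051 in inflamed cells. Of the annotated exon bases of Mrpl24, 26.3% are shared with Rrnad1 on the opposite strand. Rrnad1 changed by -0.018 in inflamed, 0.019 in tolerized and 0.12 in activated cells. The part of Rrnad1 in the level of Mrpl24 was not tested.

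In the Mrps class, 28 of 29 genes were called higher and 1 lower in each antigen-exposed group. The class medians of the log2 change were 1.14 in inflamed, 1.18 in tolerized and 1.13 in activated cells. Mrps6 had 55.2, 45.6 and 50.5 CPM in inflamed, 56.6, 48.1 and 45.2 CPM in tolerized and 67.3, 55.1 and 35.4 CPM in activated libraries, against 5.59, 6.04 and 5.17 CPM in naive libraries. Its log2 changes of 2.96, 2.95 and 2.98 were the largest of the class in each comparison. Slc5a3, a sodium and myo-inositol transporter whose gene lies on the same strand within the span of Mrps6 on chromosome 16 (GENCODE M21, GRCm38), had 361 to 659 CPM in inflamed, 339 to 729 CPM in tolerized and 333 to 693 CPM in activated libraries, against 46.9 to 69.2 CPM in naive libraries. The 2 genes' reads could be separated only as far as the authors' counting did, and the part of Slc5a3 in the change of Mrps6 was not tested. Mrps22, whose promoter is printed above, changed by 2.56, 2.45 and 2.45, and Mrps2, Mrps12 and Mrps30 by 1.46, 1.46 and 1.67 in inflamed cells. Mrps5 changed by 0.98, 0.92 and 0.89.

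Mrps25, a small subunit protein, was the exception in direction. It had 59.0, 72.3 and 76.5 CPM in inflamed, 69.3, 77.5 and 87.8 CPM in tolerized and 68.9, 80.7 and 88.9 CPM in activated libraries, against 108, 105 and 88.8 CPM in naive libraries. Inflamed and tolerized libraries were all below the naive ones, and activated 3 stood just above naive 3. The log2 change was -0.54 ± 0.14 in inflamed (adjusted p = 0.00436), -0.36 ± 0.14 in tolerized (adjusted p = 0.0315) and -0.34 ± 0.14 in activated cells (adjusted p = 0.0426). The inflamed call held with each library left out in turn. The tolerized call was lost without tolerized 1, tolerized 2, naive 1 or naive 2 (adjusted p = 0.0706 to 0.127), and the activated call without activated 1 or 2, tolerized 1 or 2, inflamed 2 or 3, or naive 1 or 2 (adjusted p = 0.0527 to 0.202). Of the annotated exon bases of Mrps25, 69.8% are shared with Nr2c2, a nuclear receptor gene on the opposite strand, and whether counting used strand is not given in the sources used here. Nr2c2 was also lower, with 71.8 to 104 CPM in inflamed, 80.8 to 123 CPM in tolerized and 69.7 to 146 CPM in activated libraries, against 163 to 200.3 CPM in naive libraries (log2 changes -1.06, -0.91 and -0.86). Without strand, reads within the shared bases cannot be assigned to Mrps25 or to Nr2c2.

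Shared exon bases touched other members too. In the GENCODE M21 annotation 57 members shared no exon base with another gene, and 20 shared more than 10%, 5 of them more than 50% (Mrpl53, Tomm6, Mrps34, Mrps25 and Tomm40l). Among the 77 tested members at or under 10%, 75 were higher in inflamed, 75 in tolerized and 76 in activated cells than in naive cells. None was lower, and the median log2 changes were 1.46, 1.49 and 1.47. The 77 include Tomm20l, whose call in activated cells is among the 76 and is not read as a result. Mrps34, a small subunit protein, shares 77.8% of its exon bases with other models, most of them with Mapk8ip3 on the opposite strand, and went against it: Mrps34 changed by 0.57, 0.73 and 0.64, while Mapk8ip3 changed by -1.27, -1.23 and -1.12.

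Several members are paralogs, and their levels per exon length were compared within each library. Timm17a and Timm17b are alternative subunits of the TIM23 complex. Timm17a had 141, 113 and 126 CPM in inflamed, 143, 111 and 104 CPM in tolerized and 152, 106 and 94.1 CPM in activated libraries, against 20.6, 23.2 and 20.9 CPM in naive libraries. Timm17b had 26.1 to 28.7 CPM, 29.4 to 32.9 CPM and 23.6 to 27.0 CPM, against 14.6 to 16.8 CPM in naive libraries. Both were called higher in each group, with log2 changes of 2.49, 2.40 and 2.36 for Timm17a and 0.76, 0.92 and 0.67 for Timm17b. In RPKM, which depends on the exon lengths used, the ratio of Timm17a to Timm17b was 7.01 to 9.01 in inflamed, 6.01 to 8.72 in tolerized and 7.07 to 10.05 in activated libraries, against 2.27 to 2.56 in naive libraries.

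The same held for other pairs. Timm8a1 and Timm8b stood at a ratio of 2.25 to 3.10 in inflamed, 2.35 to 2.57 in tolerized and 2.43 to 3.07 in activated libraries, against 0.763 to 0.990 in naive libraries. The naive 1 ratio of 0.990 was about even, and in CPM, without division by exon length, Timm8a1 was above Timm8b in every library (19.8, 19.5 and 17.0 CPM against 8.90, 11.3 and 9.94 CPM in naive libraries). Tomm40 and Tomm40l stood at 9.24 to 12.6, 11.0 to 14.7 and 9.49 to 14.4, against 2.52 to 2.71 in naive libraries, although 64.3% of the exon bases of Tomm40l lie opposite Nr1i3, which had 0.837 to 2.12 CPM in all libraries. Among the Mrps18 proteins, which are homologous to one bacterial protein, Mrps18b changed by 2.27, 2.11 and 2.07, Mrps18a by 1.75, 1.63 and 1.61, and Mrps18c by 0.92, 1.19 and 1.21. The ratio of Mrps18b to Mrps18c was 1.94 to 2.81 in inflamed, 1.44 to 2.01 in tolerized and 1.53 to 1.77 in activated libraries, against 0.782 to 1.08 in naive libraries.

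For each of 6 ratios compared (the 3 pairs and the 3 combinations of Mrps18 genes), the antigen-exposed libraries did not overlap the naive ones. Ratios of other gene pairs were not taken. These ratios were added after the data were seen, the 3 Mrps18 ratios share genes, and no p is given for them against naive. Over the 9 antigen-exposed libraries minus the 3 naive ones, the mean log2 ratio differed by 1.65 for Timm17a over Timm17b, 1.64 for Timm8a1 over Timm8b, 2.12 for Tomm40 over Tomm40l, 1.03 for Mrps18b over Mrps18c, 0.56 for Mrps18a over Mrps18c and -0.47 for Mrps18a over Mrps18b. Between antigen-exposed groups, no ratio passed a two-sided exact permutation test on log2 ratios after adjustment over the 6 (smallest p = 0.10, which is also the smallest that 3 against 3 libraries can give, for Mrps18b over Mrps18c in inflamed against activated cells, adjusted p = 0.60).

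**Figure D3:**
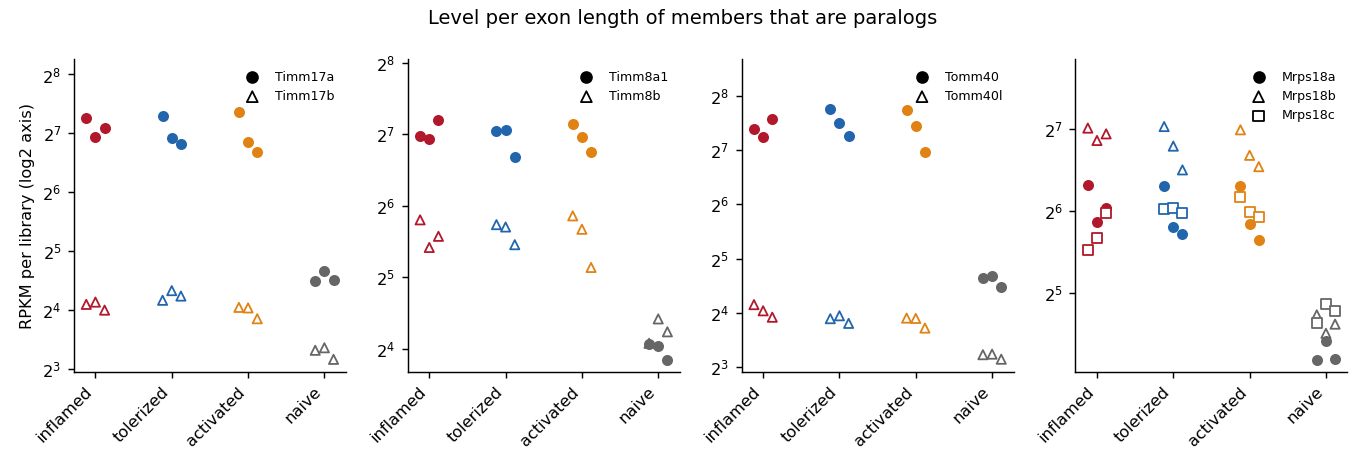
RPKM of paralogous members in every library (points, log2 axis), with the groups from left to right and each paralog given its own marker. Timm17a and Tomm40 stand further above Timm17b and Tomm40l in the antigen-exposed libraries than in naive ones, and Timm8a1 lies above Timm8b in all 9 antigen-exposed libraries and at or below it in the naive ones on this per-length scale (ratios of 0.763 to 0.990).

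Among the 3 antigen-exposed groups, no member differed by the test. In inflamed against tolerized cells, 0 of 97 members were called, where 2.78% of all tested genes were. There, 2 members (2.06%) had an unadjusted p under 0.05, where 1837 of all tested genes (14.7%) did. In inflamed against activated cells, 0 members were called, where 1.92% of all tested genes were. There, 3 members (3.09%) had an unadjusted p under 0.05, where 1250 of all tested genes (10.0%) did. In tolerized against activated cells, 0 members were called, where 0% of all tested genes were. There, 2 members (2.06%) had an unadjusted p under 0.05, where 531 of all tested genes (4.25%) did. limma-voom on the counts likewise called 0 members in each of the 3 comparisons. The members' median log2 change was 0.01 in inflamed against tolerized, 0.05 in inflamed against activated and 0.05 in tolerized against activated cells. The 95% interval of the change lay within 1.5-fold for 92, 91 and 97 of 97 members in those comparisons, and within 2-fold for 97 of 97 in each.

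**Figure D4:**
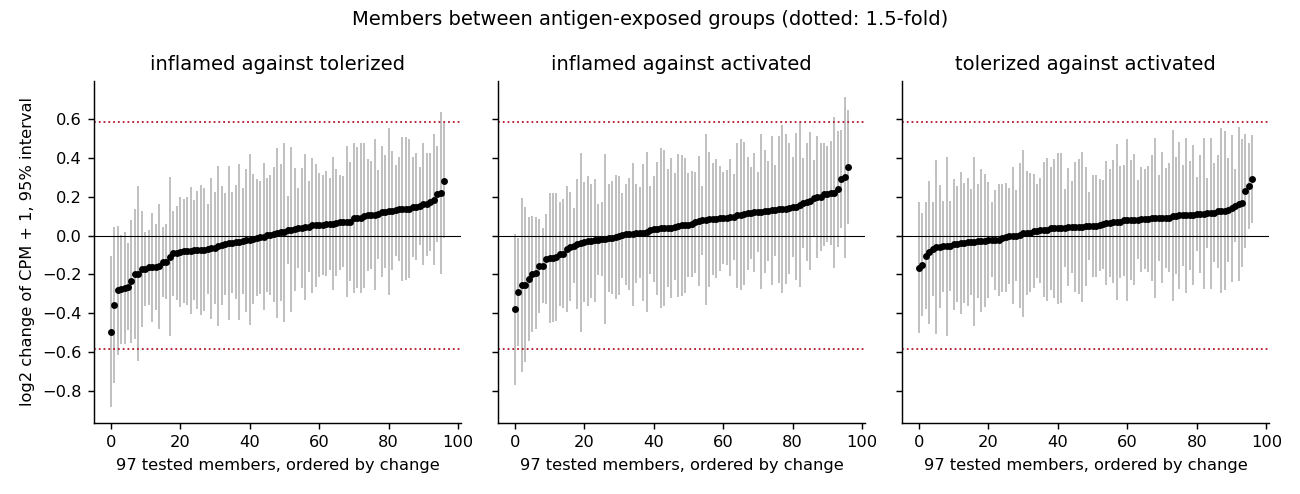
Log2 change of CPM + 1 (points) with 95% intervals (bars) of the 97 tested members, ordered within each panel, between antigen-exposed groups, with dotted lines at 1.5-fold. The changes run from -0.50 to 0.28 in inflamed against tolerized, from -0.38 to 0.35 in inflamed against activated and from -0.17 to 0.29 in tolerized against activated cells.

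The members with the smallest p-values had log2 changes of 0.50 or less in size, among the largest of their comparisons. Mrps31, a small subunit protein, had 23.8, 23.1 and 31.4 CPM in inflamed libraries, against 44.3, 36.6 and 30.9 CPM in tolerized libraries, with a log2 change of -0.50 (95% interval -0.89 to -0.11, unadjusted p = 0.0173, adjusted p = 0.196). Inflamed 3 and tolerized 3 overlapped. Mrpl4, a large subunit protein, had 45.1, 42.4 and 43.9 CPM in inflamed libraries, against 48.1, 51.0 and 59.8 CPM in tolerized libraries, with a log2 change of -0.26 (95% interval -0.49 to -0.037, unadjusted p = 0.0267, adjusted p = 0.249). These libraries did not overlap, and how many other members or tested genes also did not overlap was not counted. Mrps18c was lower by 0.28 in inflamed against tolerized cells (unadjusted p = 0.0510, adjusted p = 0.343) and by 0.29 in inflamed against activated cells (unadjusted p = 0.0424, adjusted p = 0.473). Mrpl41 and Mrpl16 stood higher in inflamed than in activated cells by 0.35 (unadjusted p = 0.0221) and 0.29 (unadjusted p = 0.0275), at adjusted p = 0.351 and 0.402. Mrpl4 and Timm17b were higher by 0.29 and 0.26 in tolerized than in activated cells (unadjusted p = 0.0164 and 0.0263, adjusted p = 1 for both).

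Genes of the cytosolic ribosome were set beside those of the mitochondrial one. Of 82 genes for cytosolic ribosomal proteins, 79 were tested, and 30 were higher and 14 lower in inflamed, 24 higher and 25 lower in tolerized, and 24 higher and 18 lower in activated cells than in naive cells. That is 38.0, 30.4 and 30.4% higher and 17.7, 31.6 and 22.8% lower, where 36.9, 37.4 and 35.3% of all tested genes were higher and 35.5, 35.9 and 35.3% lower, so the share of higher calls was near or under that of all genes. Their median log2 changes were 0.12, 0.00 and 0.02, against 1.37, 1.44 and 1.42 for the mitochondrial members. They summed to 106693 to 108432 CPM in inflamed, 98652 to 101492 CPM in tolerized and 95041 to 109657 CPM in activated libraries, against 95764 to 101647 CPM in naive libraries. The 3 inflamed libraries lay above the naive ones, and the tolerized and activated libraries overlapped them. Between the antigen-exposed groups, 0 of the 79 were called in each comparison.

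**Figure D5:**
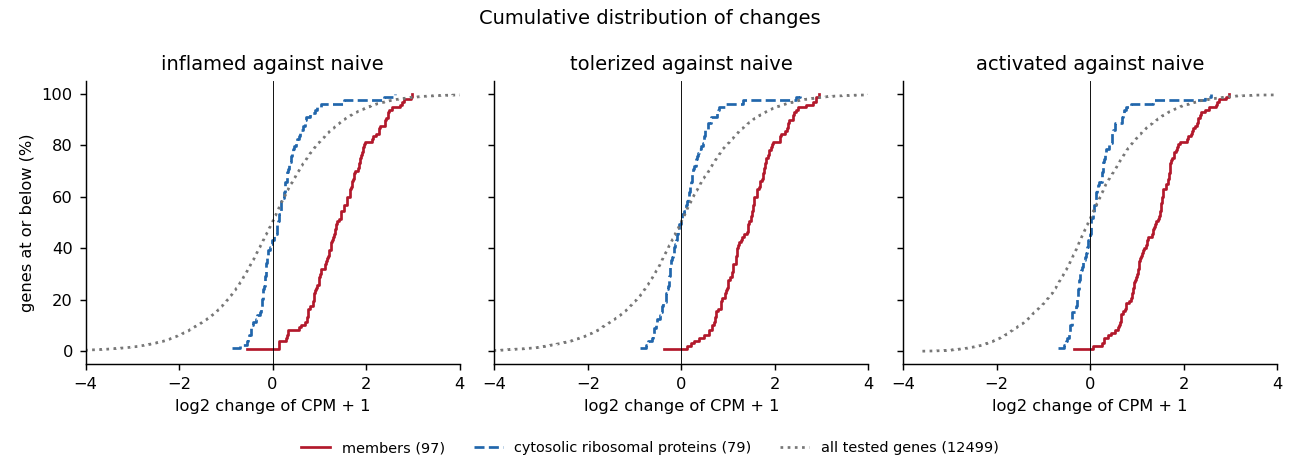
Cumulative share of genes (vertical axis, percent) at or below a log2 change of CPM + 1 (horizontal axis) against naive, for the 97 tested members, 79 cytosolic ribosomal protein genes and 12499 tested genes. The members' curve lies to the right of both others in each panel through most of its range, with a median of 1.37 in inflamed cells against 0.12 for cytosolic ribosomal proteins and -0.0056 for all genes.

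Related genes outside the symbol rule were counted from fixed lists, to be read against the shares of all tested genes called higher (36.9% in inflamed, 37.4% in tolerized and 35.3% in activated cells) and lower (35.5, 35.9 and 35.3%). Of 21 tested import partners under other names, which include the matrix chaperones and the import motor, 17 were higher in inflamed, 19 in tolerized and 17 in activated cells, none was lower, and the median log2 changes were 1.42, 1.29 and 1.29. Hspd1, the chaperonin that folds imported proteins, changed by 4.24, 4.32 and 4.27, Hspa9, the motor's chaperone, by 2.78, 2.65 and 2.56, and Chchd4, which oxidises small TIM proteins in the space between the membranes, by 3.28, 3.27 and 3.25. Of 15 mitochondrial translation factors, 11, 12 and 12 were higher and 1 lower in each group, with medians of 0.62, 0.67 and 0.54, and the elongation factors Tufm and Gfm1 changed by 2.57 and 2.04 in inflamed cells. Of 22 assembly factors of the mitoribosome, 17, 18 and 16 were higher and 1 lower in each group, with medians of 0.60, 0.61 and 0.60. Of 7 tested genes for transcription and replication of mitochondrial DNA, 5 (71.4%) were higher and 2 (28.6%) lower in each group, the share lower being near that of all genes. Of 8 tested regulators of mitochondrial genes, 5, 6 and 5 were higher and none lower, among them Myc, a transcription factor of growth programmes, at 704 to 1027 CPM in inflamed, 722 to 1092 CPM in tolerized and 655 to 1205 CPM in activated libraries, against 61.9 to 96.7 CPM in naive libraries, and Pprc1, a coactivator (2.20, 2.17 and 2.16). Other regulators on that list moved less. Mean CPM in inflamed against naive cells was 60.0 against 53.4 for Nrf1, 27.4 against 25.2 for Esrra and 16.1 against 20.3 for Ppargc1b.

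Of 7 tested mitoribosome proteins under other names, 5 were higher in inflamed, 7 in tolerized and 7 in activated cells, with medians of 1.0, 1.01 and 0.99. Dap3, a small subunit protein, changed by 0.10 in inflamed (adjusted p = 0.335), 0.28 in tolerized (adjusted p = 0.0183) and 0.28 in activated cells (adjusted p = 0.0174). The matrix holds 5 genes under older symbols that would fit the rule by their current name (for example Fxc1, now Timm10b, and 1700034H14Rik, now Timm21). Mrp63 and Ict1 are among these 5 and also among the 7 above, so the counts overlap. Of the 5 genes, 4 were higher in inflamed and 5 in tolerized and in activated cells, with medians of 0.49, 0.43 and 0.42, below the members' own medians.

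Within a library, the mitoribosomal members stood closer together in antigen-exposed cells. The standard deviation of log2 RPKM over these members was 0.884 to 0.928 in inflamed, 0.862 to 0.889 in tolerized and 0.866 to 0.902 in activated libraries, against 1.01 to 1.02 in naive libraries. The antigen-exposed libraries all lay below the naive ones, while the antigen-exposed groups overlapped each other. The same spread was not taken over other genes.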

How the data were processed

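The count matrix was deposited by the authors, with whole numbers of reads per gene written with commas as digit separators. Per the submitters' processing notes, the tools were TopHat2, bedtools and DESeq and the builds mm10 and GRCm38; their roles, versions, strand setting and annotation are not given in the sources used here. The extraction text in the labels names fibroblasts, while the source names KB5 T cells, and the source is followed here. The counts were scaled by trimmed-mean factors. Because of the separators they were treated as values of another unit, and limma-trend (version 3.58.1) on log2(CPM + 1) was used in place of the count model planned: 12 libraries, 4 group means, 8 residual degrees of freedom. Genes needed at least 0.258 CPM, computed before that scaling, in at least 3 libraries and at least 15 reads in all. RPKM used the exon lengths in the deposited matrix. Of the members, 96 stood above that level in all 12 libraries.

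Members and lists were chosen with earlier results of these data known. Named members are, per comparison, the 8 largest called rises and falls and the 5 smallest changes, fixed reference subunits, the 3 highest and 3 lowest by RPKM, those failing the filter, and the 5 smallest p-values between antigen-exposed groups. Tests of paralog ratios (scipy version 1.17.1) and the search of shared exons and promoters were added after the data were seen. The fit was run on simulated data in which a small set of genes was raised in tolerized cells alone. In the real data most tested genes were called against naive, so the simulation does not test the scaling used here. Same-numbered libraries deviated together in tolerized against activated cells (correlation of deviations 0.190 to 0.602) and in inflamed against activated cells (0.146 to 0.636). In the other 4 comparisons they did not all do so. Some unlike-numbered libraries also deviated together, such as inflamed 2 with activated 3 (0.562) and tolerized 3 with activated 2 (0.214). The labels do not say what the numbers mark, so no pairing was assumed. A fit with a replicate block is given as an alternative.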

Additional observations from a re-analysis of the deposited data

How the results depend on the processing

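Over 25 alternatives to each comparison with naive, the members called higher numbered 88 to 93 in inflamed, 91 to 95 in tolerized and 89 to 95 in activated cells, and over 24 alternatives 0 members were called between antigen-exposed groups. The median log2 change of tested members, inflamed, tolerized and activated against naive, was 1.18, 1.23 and 1.22 with upper-quartile factors and 1.06, 1.15 and 1.15 with library size alone, and 1.24 in inflamed and 1.27 in tolerized cells with a pseudocount of 5. These 2 scalings also shifted the median of all genes, by -0.17, -0.18 and -0.16 and by -0.27, -0.24 and -0.22, and with library size alone 38.6, 39.6 and 39.1% of all calls were higher, against 51.0, 51.0 and 49.97%; with upper-quartile factors the share was 42.5, 41.8 and 41.1%. Leaving out 1 library at a time gave medians of 1.32 to 1.45, 1.40 to 1.53 and 1.32 to 1.56. Members called lower numbered 2 in each comparison with library size alone. In tolerized cells they numbered 2 with no filter. In activated cells they numbered 0 with no filter and 0 with those 2 groups fitted alone. With 1 library left out they numbered 0 to 1 in tolerized and in activated cells. Reversed under library size alone were Mrpl24 in tolerized (-0.037), Mrpl4 in inflamed (-0.0051) and Tomm7 in inflamed cells (-0.039). The cause was not tested.

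With the replicate block over all 12 libraries, 93, 94 and 94 members were higher and 1 lower in inflamed, tolerized and activated cells; with the replicate block in the 2 groups alone, 90, 94 and 91 were higher and 1, 0 and 0 lower. In tolerized against activated and in inflamed against activated cells, the block called 0 members, as without it. Calls on 90 of 94 members in inflamed, 93 of 95 in tolerized and 91 of 96 in activated cells held with each library left out. Tomm20l was among the calls lost in activated cells, and the counts over alternatives include it where it was tested. After seeing the data, 2 settings were added: without activated 3 and tolerized 3 no count moved by over 1.5 times, and without naive 2 and naive 3, which held most macrophage transcripts, 0 members were lower in tolerized and in activated cells. With 3 libraries a group, the median half-width of a 95% interval was 0.30 (log2).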
